A study of Homo sapiens with 11 samples.

Results

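Chemokine genes were examined on expression arrays of 2 established lung cancer cell lines, A549 and HCC827, each derived from an adenocarcinoma. The set was chosen by name as CXCL1, CXCL2, CXCL3, CXCL5, CXCL8, CXCL14, CXCL16, CCL2, CCL20 and CX3CL1, with values of these arrays already known, so its values are given as a description and without a test. Of these 10 genes, 9 had a probe that could be named through its RefSeq accession, and no probe was named for CX3CL1. They are covered by 11 of the 42405 probes of the array, or 9 of 20249 genes with a named probe. All cells had been infected with the pMXs-Neo retrovirus and selected with G418. The arrays labelled mock carried the empty vector, and the arrays labelled TRIM58-WT carried the wild-type coding sequence of TRIM58, a ubiquitin ligase of the tripartite motif family, with a FLAG tag. The labels give 3 control cells of A549 on 4 arrays, 3 TRIM58-expressing cells of A549 on 3 arrays, and 2 mock and 2 TRIM58-WT samples of HCC827. Mock arrays 1-1 and 1-2 of A549 hold the same control cell and were averaged to 1 replicate. The methods describe isolated clones, so a replicate of A549 may be 1 clone, and p-values in A549 measure the spread between such cells. A figure legend of the study names crude transfectants of HCC827, and whether the HCC827 replicates are separate clones is not given.

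Chemokines are small secreted proteins that attract leukocytes along a gradient and act through receptors with a G protein partner. CXCL1, CXCL2, CXCL3, CXCL5 and CXCL8 carry the ELR motif and are known for drawing neutrophils. They act mainly through CXCR2, and CXCL8 also acts through CXCR1. CCL2 attracts monocytes through CCR2, and CCL20 attracts cells with CCR6. CXCL14 is made by normal epithelia, whereas CXCL16 and CX3CL1 are made as membrane-bound proteins that can be shed. In epithelial cells, interleukin 1 and tumour necrosis factor switch many of these genes on through NF-kB, and AU-rich elements in their mRNAs make the transcripts short-lived.

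The stretch before the transcription start is shown for the 7 genes that RefSeq's promoter table (build GRCh38.p14) holds, because it carries a sequence shared by the ELR chemokines. Each is the 150 bases before the start, 5′ to 3′ on the gene's strand. The stretches lie at chr4:73869243-73869392 (plus strand) for CXCL1, chr4:74099196-74099345 (minus strand) for CXCL2, chr4:74038690-74038839 (minus strand) for CXCL3, chr4:73998678-73998827 (minus strand) for CXCL5, chr4:73740419-73740568 (plus strand) for CXCL8, chr5:135578992-135579141 (minus strand) for CXCL14 and chr2:227813692-227813841 (plus strand) for CCL20. Capitals mark GGAATTTCC in the ELR chemokines, matches to GGG and CC with any 5 bases between them in CCL20 and TGANTCA in CXCL14.
CXCL1: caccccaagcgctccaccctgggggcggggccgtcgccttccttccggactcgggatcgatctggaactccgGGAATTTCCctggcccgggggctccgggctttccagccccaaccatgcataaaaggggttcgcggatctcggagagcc
CXCL2: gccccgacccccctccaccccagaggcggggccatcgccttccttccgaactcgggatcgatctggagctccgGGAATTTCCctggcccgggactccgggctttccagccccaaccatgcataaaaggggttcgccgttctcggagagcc
CXCL3: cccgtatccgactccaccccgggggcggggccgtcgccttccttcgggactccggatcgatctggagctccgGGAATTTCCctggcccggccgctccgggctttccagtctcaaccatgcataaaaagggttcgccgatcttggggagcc
CXCL5: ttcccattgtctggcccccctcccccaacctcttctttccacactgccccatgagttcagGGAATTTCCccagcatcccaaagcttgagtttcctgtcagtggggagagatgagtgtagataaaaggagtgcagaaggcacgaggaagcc
CXCL8: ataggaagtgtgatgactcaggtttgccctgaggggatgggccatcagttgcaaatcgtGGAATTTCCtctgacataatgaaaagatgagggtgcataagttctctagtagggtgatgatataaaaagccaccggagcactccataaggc
CCL20: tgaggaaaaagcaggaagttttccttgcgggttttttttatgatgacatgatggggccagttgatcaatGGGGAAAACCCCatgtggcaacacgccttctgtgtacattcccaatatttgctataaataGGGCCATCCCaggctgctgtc
CXCL14: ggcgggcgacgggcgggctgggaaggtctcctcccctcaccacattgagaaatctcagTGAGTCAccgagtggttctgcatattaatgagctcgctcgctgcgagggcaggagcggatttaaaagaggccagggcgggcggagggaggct

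The letters GGAATTTCC, a form of the NF-kB site, were searched on both strands and stand in all 5 ELR chemokines, but not in CXCL14 or CCL20. Of the 35116 promoters of the table, 0.253% hold these letters in the same stretch. CXCL1, CXCL2, CXCL3 and CXCL5 hold them within a run of 11 bases that any 2 of them share, whereas CXCL8 shares the 9 letters alone. The longest run shared by the stretches of CXCL1 and CXCL2 is 42 bases and that of CXCL2 and CXCL3 is 37 bases. The looser NF-kB form, GGG and CC with any 5 bases between them, overlaps the first motif in CXCL1, CXCL2, CXCL3 and CXCL5. It was searched on both strands and matched in 6 of the 7 genes and in 43.1% of all promoters. TGANTCA, the AP-1 form, matched in CXCL8 and CXCL14 and in 4.17% of all promoters. A match describes the letters and not the binding of a factor.

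Each level is a log2 processed signal from which that array's own 75th percentile was subtracted, so 0 is the brightness of the 75th percentile probe. A level can be compared between arrays for 1 probe, but not between probes. Between 40.1% and 50% of probes were well above background on the 11 arrays, no spot was saturated, and the number of arrays limits the precision. The TRIM58 probe, A_33_P3249414, was well above background on no array labelled TRIM58-WT and only on A549 mock 3, at -0.71, and its place relative to the cloned coding sequence was not analysed. Directions therefore refer to the arrays labelled TRIM58-WT. Slide 1 held A549 mock 1-1, mock 2 and TRIM58-WT 1 and all HCC827 arrays, and slide 2 held A549 mock 1-2, mock 3 and TRIM58-WT 2 and 3. Over all probes the log2 levels of TRIM58-WT 2 and 3 stood apart by an SD of 0.24, near the 0.286 of mock 1-1 against 1-2, whereas TRIM58-WT 1 stood apart from them by 0.824 and 0.79. Mock 3 stood apart from mock 1-1 and mock 2 by 0.729 and 0.817.

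Among the ELR chemokines, CXCL5 (probe A_24_P277367), also called ENA-78, was lower in A549 TRIM58-WT. Its level was 7.76, 7.79, 7.77 and 6.07 on mock arrays 1-1, 1-2, 2 and 3, and 4.98, 2.96 and 2.93 in TRIM58-WT 1, 2 and 3. Every TRIM58-WT array was lower than every mock array, with mock 3 and TRIM58-WT 1 lying nearest to each other. The means were 7.21 ± 0.99 (SD, n = 3) and 3.62 ± 1.18 (SD, n = 3), a difference of -3.58 (SE 0.71), or 12-fold lower. The difference was -2.79 on slide 1 and -3.99 on slide 2. In HCC827 the mock samples read 3.62 and 3.42 and the TRIM58-WT samples 3.34 and 3.69, so the groups overlapped and the means differed by 0.00 (SE 0.19).

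CXCL3 (A_24_P183150), a close copy of CXCL1 and CXCL2, was 2.55, 2.54, 2.45 and 0.76 on the A549 mock arrays. It was 0.20, -3.39 and -2.93 in TRIM58-WT, where replicates 2 and 3 were not well above background. The groups did not overlap, and the difference was -3.96 (SE 1.01). It was -2.31 on slide 1, whereas on slide 2 both TRIM58-WT arrays were at background, so the value there (-4.81) and the mean difference rest on background signals and their size is not fixed. With normexp background correction the difference was -2.03. HCC827 gave -1.76 and -1.82 with the empty vector against -1.70 and -1.67 in TRIM58-WT, higher by 0.11 (SE 0.13) without overlap. Because the copies are so alike, signal from a sister transcript on the probes of CXCL1, CXCL2 and CXCL3 was not tested.

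CXCL1, first described as a growth factor of melanoma cells, was measured by a pair of probes. On A_23_P7144 it was 5.83, 5.83, 6.03 and 4.71 on the A549 mock arrays and 5.65, 2.46 and 2.47 in TRIM58-WT. TRIM58-WT 1 thus lay above mock 3, and the groups overlapped. The means were 5.52 ± 0.71 and 3.53 ± 1.84 (SD, n = 3 each), a difference of -1.99 (SE 0.91), which was -0.28 on slide 1 and -2.80 on slide 2. The dimmer probe A_33_P3330264 gave a difference of -2.02 (SE 0.69), also with overlap. HCC827 mock gave 3.81 and 3.57, against 3.41 and 3.44 for TRIM58-WT, a difference of -0.27 (SE 0.15) without overlap, and the dimmer probe gave -0.40 (SE 0.15).

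CXCL2, another neutrophil attractant, followed the same order of arrays. Probe A_23_P315364 read 4.80, 4.77, 4.75 and 3.19 on the A549 mock arrays and 3.99, 1.98 and 1.94 in TRIM58-WT, again with replicate 1 above mock 3. The difference was -1.61 (SE 0.69) on this probe and -1.77 (SE 0.66) on A_24_P257416, with overlap on both, and on the brighter probe it was -0.79 on slide 1 and -2.02 on slide 2. HCC827 mock read 3.35 and 3.31 and TRIM58-WT 3.49 and 3.56, higher by 0.19 (SE 0.13) without overlap, but the other probe gave -0.01 (SE 0.14) with overlap. The direction of CXCL2 in HCC827 therefore depended on the probe.

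CXCL8 (A_32_P87013), or interleukin 8, was near the background of these cells. It was well above background on A549 mock 1-2 alone, at -2.54, and the other mock arrays read -2.68, -3.10 and -4.13. TRIM58-WT read -3.23, -4.64 and -4.66, and the HCC827 arrays lay between -5.51 and -4.39. A change of CXCL8 was not measurable at this signal.

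**Figure D1:**
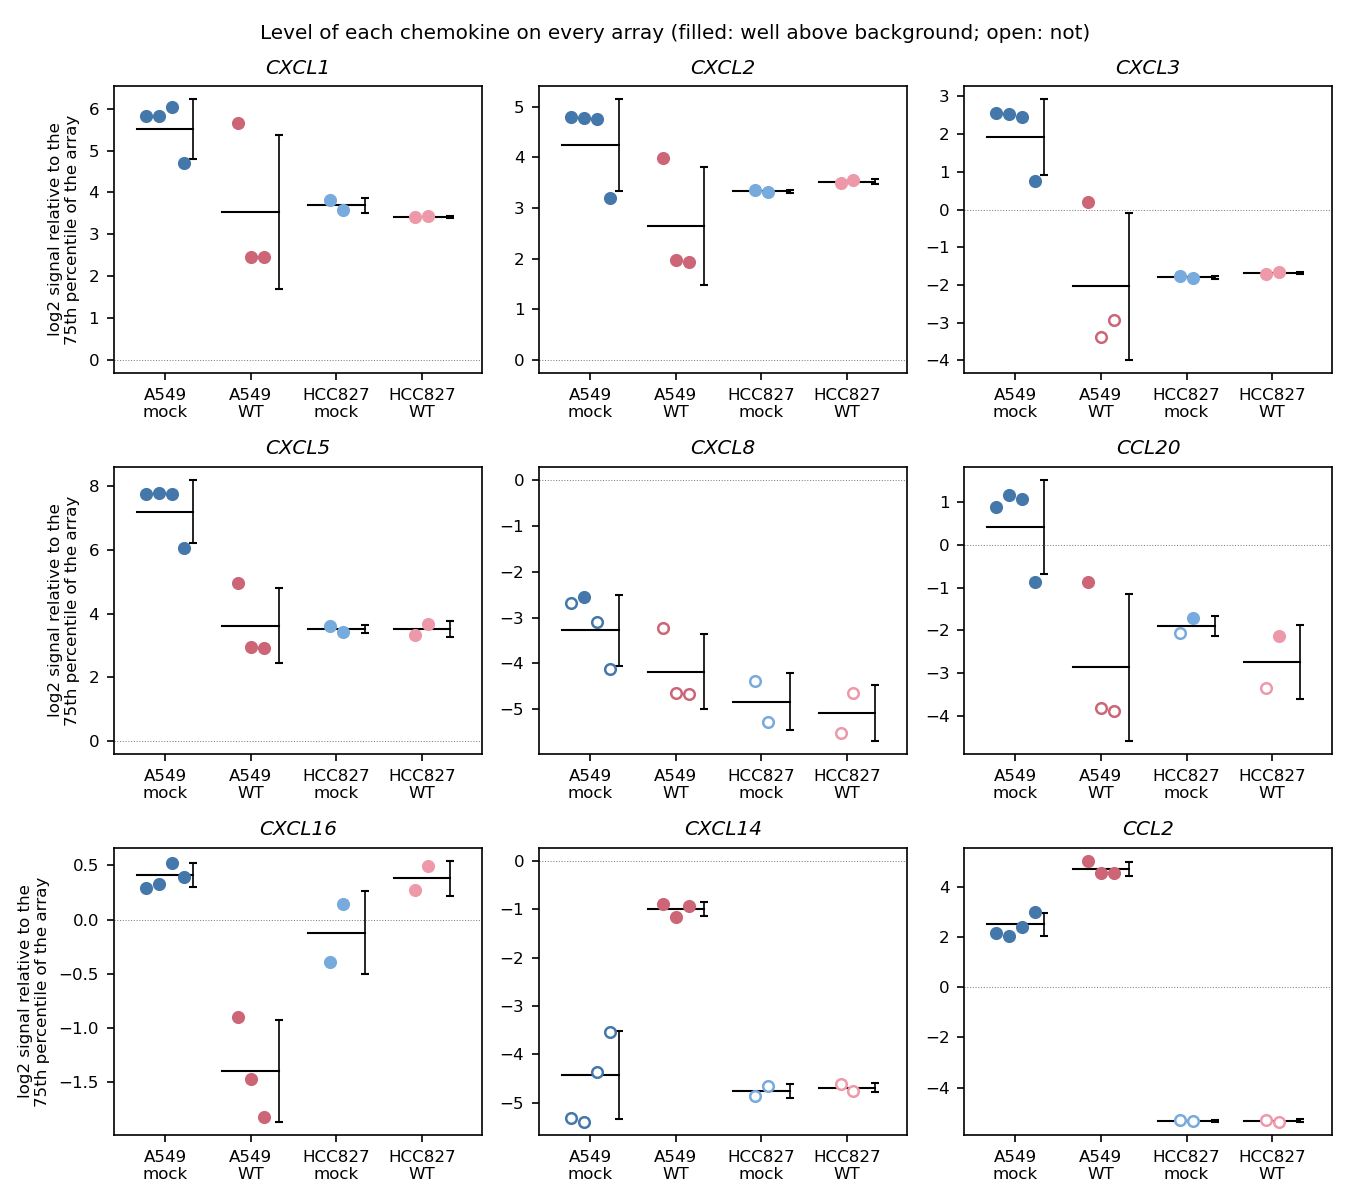
Level of each chemokine (log2 signal relative to the 75th percentile of the array) on every array, by group, with the mean as a line and the SD as a bar (A549 n = 3 replicates a group, HCC827 n = 2). Filled points are well above background and open points are not. In A549, CXCL3, CXCL5, CCL20 and CXCL16 were lower and CXCL14 and CCL2 higher on every TRIM58-WT array, CXCL1 and CXCL2 overlapped between the groups, and CCL2 was at background in HCC827.

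CCL20 (A_23_P17065), the ligand of CCR6, was 0.89, 1.15, 1.07 and -0.87 on the A549 mock arrays. It was -0.87, -3.82 and -3.88 in TRIM58-WT, and replicates 2 and 3 were not well above background. TRIM58-WT 1 lay just under mock 3 (both print as -0.87), so the groups were apart by less than the last digit given, and the difference was -3.27 (SE 0.94). It was -1.85 on slide 1. The value on slide 2 (-4.00) again set mock against TRIM58-WT signals at background, and with normexp the difference was -1.23. In HCC827 only 1 of 2 arrays in each group was well above background, with mock levels of -2.07 and -1.72 against -3.34 and -2.13 for TRIM58-WT.

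CXCL16 (A_33_P3351249), a membrane-bound chemokine and scavenger receptor, differed from the ELR chemokines in having even mock levels. It was 0.29, 0.33, 0.52 and 0.39 on the A549 mock arrays, with mock 3 in the middle of the range, and -0.90, -1.47 and -1.82 in TRIM58-WT. The difference was -1.80 (SE 0.26), or 3.49-fold lower, with values of -1.30 on slide 1 and -2.01 on slide 2, and it was -0.84 with normexp background correction. The HCC827 mock samples read -0.39 and 0.14 and the TRIM58-WT samples 0.27 and 0.49, a difference of 0.50 (SE 0.23) in the opposite direction.

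CXCL14 (A_33_P3590259) and CCL2 (A_23_P89431) were the members that were higher in A549 TRIM58-WT. CXCL14 was at background on all 4 mock arrays, at -5.32, -5.40, -4.37 and -3.54, and was well above background on every TRIM58-WT array, at -0.88, -1.16 and -0.93. For a probe at background in 1 group only a bound holds, which sets the bright group's mean against the dimmest signal that still counted as well above background on each dim array, or against the probe's measured signal if that was higher. By that bound CXCL14 was at least 3.74-fold higher, and the sign of the measured difference was the same on both slides. The fitted difference of 3.43 was set against background signals and became 0.72 with normexp. All 4 HCC827 arrays were at background, between -4.86 and -4.62.

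CCL2, also known as MCP-1, was 2.17, 2.02, 2.41 and 3.00 on the A549 mock arrays and 5.02, 4.54 and 4.54 in TRIM58-WT. The groups did not overlap, and the means of 2.50 ± 0.46 and 4.70 ± 0.28 (SD, n = 3 each) differed by 2.20 (SE 0.28), or 4.59-fold. Its probe has 10 spots an array, against 1 or 2 for the other members. The difference was 2.73 on slide 1 and 2.03 on slide 2. HCC827 had no CCL2 signal above background, with levels between -5.36 and -5.28.

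**Figure D2:**
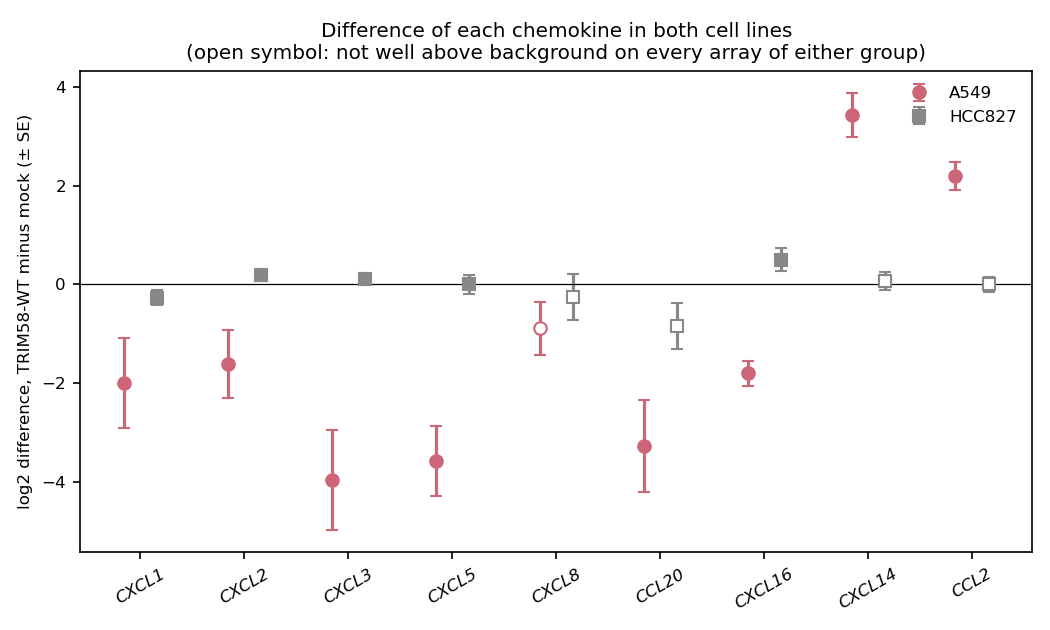
Log2 difference of TRIM58-WT minus mock with its SE for each chemokine in A549 (circles, 3 against 3 replicates) and HCC827 (squares, 2 against 2); open symbols mark probes that were not well above background on every array of either group. The A549 values run from -3.96 for CXCL3 to 3.43 for CXCL14, whose sizes rest on background signals in TRIM58-WT 2 and 3 and in mock, and those of HCC827 from -0.84 for CCL20 to 0.50 for CXCL16.

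As a count, 8 members passed the filter on dim probes in A549, and limma with Benjamini-Hochberg adjustment over all 16924 probes called 4 of them at an adjusted p under 0.05 with at least a 2-fold change. These were CXCL14 and CCL2 (higher) and CXCL5 and CXCL16 (lower), beside 7.93% of all 11182 genes tested and 6.92% of probes. Groups did not overlap for 6 of the 8 (2 higher, 4 lower), against 33.9% of genes tested (16.9% higher, 17% lower). The members were chosen with this comparison known, so nothing is read from these counts. The median difference of the 9 members was -1.80 in A549 and 0.00 in HCC827, with members that were not tested included. Over all genes tested, which leaves out such dim probes, the medians were 0.03 and 0.01. The count of 4 was 1 without TRIM58-WT 3, 2 without mock 1, mock 2 or TRIM58-WT 2, and 7 without TRIM58-WT 1. With TRIM58-WT 2 and 3 averaged to 1 replicate it was 2 (CXCL14 and CCL2). CCL2 was called without any one replicate, whereas CXCL14 was not called without TRIM58-WT 3. CXCL5 and CXCL16 were not called without mock 1, mock 2, TRIM58-WT 2 or TRIM58-WT 3. When arrays were shifted by their median instead, all A549 probes moved by -0.37 and the 8 members were all called, each in its own direction.

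In HCC827, 5 members passed the filter and limma called 0 of them, with 0 at an unadjusted p under 0.05, beside 1.07% of 12182 genes (0.328% higher, 0.739% lower) and 0.884% of probes. The methods' t-test also called 0. Of the 9 members, 3 were higher without overlap (CXCL2, CXCL3 and CXCL16) and 2 lower (CXCL1 and CCL20). With 2 arrays a group, 59.2% of all genes tested did not overlap (30.6% higher, 28.6% lower). Whether the change of a member differed between the lines was not tested, since the members were chosen with both values known.

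The order of the A549 arrays was shared by most members. Mock 3 was the lowest mock array for 6 of the 9 members, by -1.22 (CXCL1), -1.58 (CXCL2), -1.74 (CXCL3), -1.71 (CXCL5), -1.28 (CXCL8) and -1.91 (CCL20) against the mean of mock 1 and 2. TRIM58-WT 1 was the highest TRIM58-WT array for all 9, and for CXCL1, CXCL3 and CCL20 it exceeded the mean of TRIM58-WT 2 and 3 by 3.18, 3.36 and 2.98. The gap within the TRIM58-WT group was larger than the difference of the group means for CXCL1, for CXCL2 (2.03 against -1.61) and for CXCL8 (1.42 against -0.89). CXCL8 was at background on every A549 array but mock 1-2, so nothing is read from its order, gap or sign. TRIM58-WT 1 lay on slide 1 and TRIM58-WT 2 and 3 on slide 2, so cell and slide cannot be told apart within that group. Mock 3 and TRIM58-WT 2 and 3 were also the dimmest A549 arrays, with 75th percentile signals of 60.3, 62.5 and 56.6. Those of mock 1-1, 1-2 and 2 and TRIM58-WT 1 were 98, 103, 90.5 and 96.7. The part of this brightness in the order was not tested, and the share of all genes with the same order was not counted. The same control cell on both slides (mock 1-1 and 1-2) gave levels that differed by at most 0.26 for any member, and the sign of the difference was the same on both slides for all 9. Since RNA came from bulk cultures, fewer expressing cells and less RNA per cell cannot be told apart.

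**Figure D3:**
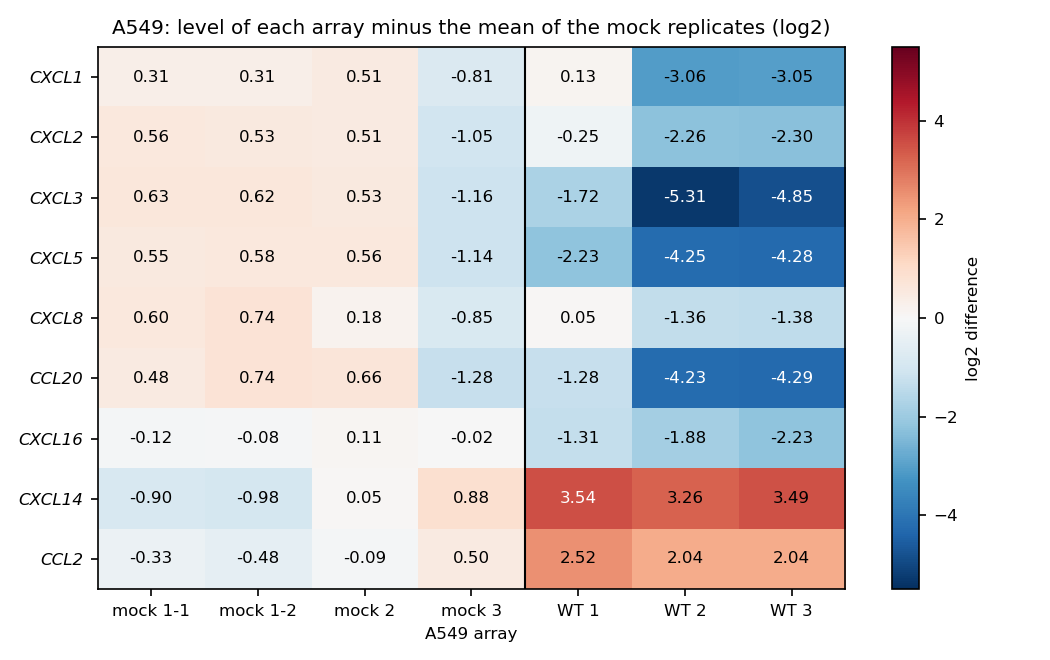
A549 levels of each chemokine on each array minus the mean of the mock replicates (log2; rows are genes, columns arrays, red higher and blue lower). The 6 upper genes were below the mock mean on mock 3 (-1.28 to -0.81) and lowest on TRIM58-WT 2 and 3, while CXCL14 and CCL2 were above the mock mean on all 3 TRIM58-WT arrays. For CXCL14 the mock arrays, for CXCL3 and CCL20 TRIM58-WT 2 and 3, and for CXCL8 all arrays but mock 1-2, were at background.

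Across the 6 A549 replicates CXCL3 and CXCL5 had a Pearson r of 0.99, CXCL3 and CCL20 0.99 and CXCL1 and CXCL2 0.97, and CXCL14 and CCL2 also 0.99. CXCL5 and CXCL14 had an r of -0.92. These values are descriptions over samples that share the group difference. Over the 10 replicates of both lines and 12811 genes, the genes most like CXCL5 in level were MMP7 (r = 0.996), SLPI (0.994) and PI3 (0.994). Those most like CXCL3 were TGIF1 (0.987), CXCL5 (0.981) and MMP7 (0.98). CXCL1 was nearest to P4HTM (0.986), ZC3H12A (0.983) and PELI2 (0.971), and CCL20 to PELI2 (0.981), P4HTM (0.971) and XDH (0.967). CXCL2 was nearest to FGFR3 (0.981), S1PR4 (0.977) and WDR11 (0.973), and CXCL16 to FBXO25 (0.954), JUP (0.953) and SGMS1 (0.952). CXCL14 was nearest to SIK2 (0.99), GXYLT2 (0.989) and A1BG (0.984).

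Mock cells of the lines differed in these genes as well. The A549 mock replicates lay above those of HCC827 for 7 of the 9 members, of which CXCL8 was at background on all arrays but mock 1-2, and overlapped for CXCL2 (on its brighter probe) and CXCL14. The share of all genes apart between the mock groups was not counted, so nothing is read from this count. CCL2 was at least 53.2-fold higher in A549 mock than in HCC827 mock. CXCL5 was higher by 3.69 (12.9-fold), CXCL3 by 3.71 (13.1-fold), CCL20 by 2.30 and CXCL1 by 1.84 on the log2 scale, while CXCL16 was higher by 0.53. In order of the 4 groups, CXCL5 was highest in A549 mock, and A549 TRIM58-WT, HCC827 mock and HCC827 TRIM58-WT followed at 3.62, 3.52 and 3.52 with overlapping values. A549 TRIM58-WT had the lowest mean of the 4 groups for CXCL2, CXCL3, CXCL16 and CCL20, and for CXCL2, CXCL3 and CCL20 its values overlapped those of the next group.

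The ELR chemokines lie in a cluster on chromosome 4 that also holds PF4V1 and PF4. Its order is CXCL8, CXCL6, PF4V1, CXCL1, PF4, PPBP, CXCL5, CXCL3 and CXCL2. RASSF6, AREG, EREG and ANKRD17 beside this cluster were taken by position, and IL1B, CXCL6, PPBP, NFKBIA, NFKB1, RELA, ADAM10, ADAM17 and the receptors of the chemokines were chosen for their roles after their values were seen. RASSF6, a Ras association domain protein next to CXCL8, was -0.76, -0.50, -0.34 and -0.95 on the A549 mock arrays and -2.72, -2.93 and -4.01 in TRIM58-WT, and fell by 2.58 on the log2 scale (SE 0.37, limma, adjusted p = 0.0126). AREG, the growth factor amphiregulin on the far side of CXCL2, was 4.59, 4.59, 4.66 and 4.56 on those mock arrays against 1.95, 2.81 and 2.59 in TRIM58-WT, and fell by 2.15 (SE 0.25, limma, adjusted p = 0.00658). AREG kept even mock levels, without the lower value of mock 3 seen for the chemokines. EREG, the epiregulin gene between CXCL2 and AREG, differed by -0.63 (SE 0.46, limma, adjusted p = 0.468), and ANKRD17, beyond RASSF6, by -0.06 (limma, adjusted p = 0.877). In HCC827, RASSF6 differed by 0.41 (limma, adjusted p = 0.227) and AREG by 0.01 (limma, adjusted p = 0.964). Without mock 1 or mock 2, RASSF6 was no longer called (limma, adjusted p = 0.0691 and 0.0612). RASSF6 was not well above background on every A549 TRIM58-WT array, so its size depends on background signals. It passed the filter through mock alone, so it could hardly be called higher. With normexp its A549 difference was -0.72.

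**Figure D4:**
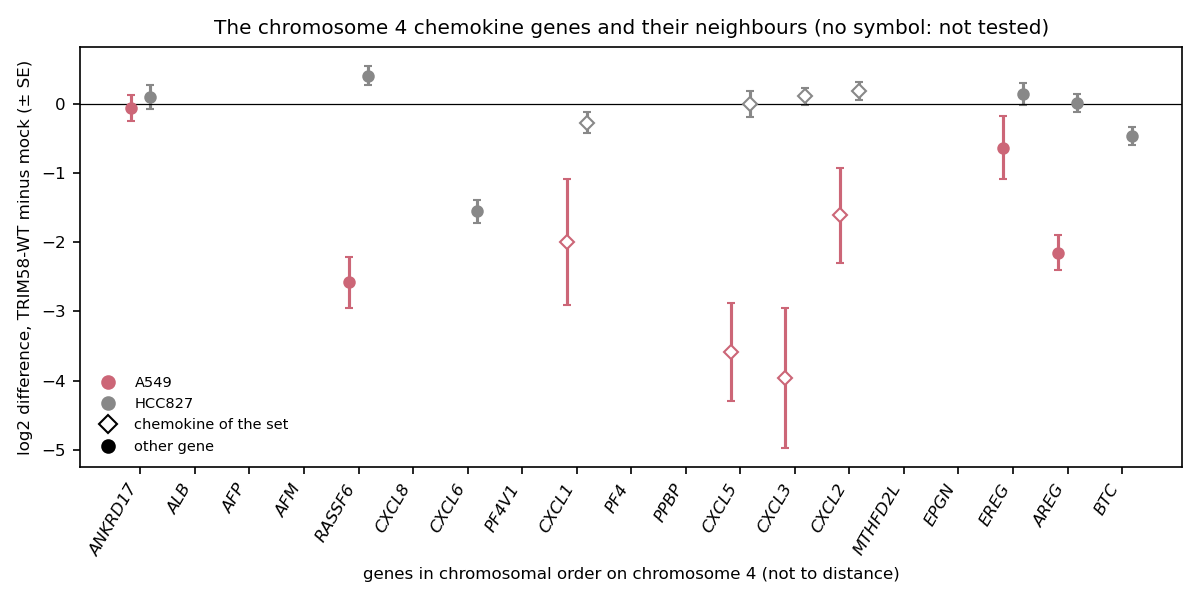
Log2 difference of TRIM58-WT minus mock with its SE for genes around the chemokine cluster, in chromosomal order and not to distance (red A549, grey HCC827, open diamonds chemokines of the set, filled circles other genes). In A549 the differences run from -2.58 at RASSF6 through -3.96 at CXCL3 to -2.15 at AREG, with EREG at -0.63 and ANKRD17 at -0.06, and genes without a symbol were not tested. The sizes at RASSF6 and CXCL3 depend on background signals in A549 TRIM58-WT.

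The other genes of the chemokine pathway were counted in 6 lists of 135 genes, of which 132 had a probe and 53 were tested in A549. Limma called 1 of these genes higher and 7 lower, beside 3.88% of genes called higher and 4.05% called lower. Of the 7, LTB and IL1R1 passed the filter on dim probes through mock alone. Of the 37 other chemokine ligands only CCL24, CCL26 and MIF were tested in A549, limma called 0 of the 3 (1 at an unadjusted p under 0.05; the methods' t-test also called 0 after adjustment), and 20 ligands were at background on every array. The cluster holds 2 further ELR chemokines. PPBP, a platelet chemokine also called CXCL7, was -1.17, -1.10, -1.23 and -3.70 on the A549 mock arrays, the first 3 well above background, and -3.27, -4.11 and -4.40 in TRIM58-WT, at background. It was not tested. Mock 3 was at background and lay below TRIM58-WT 1, so the groups overlapped and no bound holds. CXCL6 was well above background only in HCC827 mock, at -2.04 and -2.34, against -3.65 and -3.82 in HCC827 TRIM58-WT. That is at least 2.27-fold lower with an adjusted p of 0.0515 by limma, which missed the threshold.

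Most receptors for these ligands gave little signal. Of 23 chemokine receptors, 16 were at background on every array. These included CXCR2, the main receptor of the ELR chemokines, CXCR1, through which CXCL8 also acts, and CCR2, the receptor of CCL2. CCR6, the receptor of CCL20, was well above background on 2 mock and 2 TRIM58-WT arrays of HCC827. In A549 it was so on 1 mock and 2 TRIM58-WT arrays and was not tested. In A549, CCR7, CCR10 and ACKR3 were tested, and limma called 0 of the 3 (2 at an unadjusted p under 0.05, and 0 by the methods' t-test after adjustment). CCR7, the receptor of CCL19 and CCL21, differed by 1.76 (SE 0.44, limma, adjusted p = 0.0594).

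Cytokines, receptors and adaptors that induce chemokines gave 3 genes that fell among 11 tested in A549, with a median of -0.21. IL18, a cytokine of the interleukin 1 family, was 3.34, 3.33, 3.34 and 2.98 on the mock arrays and 1.89, 1.37 and 1.40 in TRIM58-WT, and fell by 1.66 (SE 0.21, limma, adjusted p = 0.00892). LTB, lymphotoxin beta, fell by 2.89 (SE 0.55, limma, adjusted p = 0.0291), and IL1R1, the signalling receptor of interleukin 1, fell by 1.21 (SE 0.20, limma, adjusted p = 0.0195). LTB and IL1R1 were each well above background on only 1 TRIM58-WT array, so their sizes depend on background signals. They passed the filter on dim probes through mock alone, so they could hardly be called higher. With normexp their differences were -0.61 and -0.3. IL1B itself was -0.09, -0.16, -0.07 and -2.90 on the mock arrays and -3.48, -4.54 and -4.60 in TRIM58-WT. It was above background on 3 of 4 mock arrays and on no TRIM58-WT array, so it was not tested. No bound holds for its size, since mock was not above background throughout.

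Of 18 tested NF-kB subunits, kinases and feedback inhibitors, 1 fell in A549 and the median was -0.12. By limma, 6 of the 18 were at an unadjusted p under 0.05. The differences that were not called ran from -0.96 (IKBKB) to 0.79 (BCL3). BIRC3, an NF-kB target that feeds back on tumour necrosis factor receptor signalling, was 3.23, 3.25, 3.29 and 2.01 on the mock arrays and 0.89, 0.63 and 0.37 in TRIM58-WT, and fell by 2.22 (SE 0.38, limma, adjusted p = 0.0203). NFKBIA, the inhibitor that NF-kB itself induces, differed by -0.73 (limma, adjusted p = 0.0920), and the subunits NFKB1 and RELA by -0.17 and 0.25 (limma, adjusted p = 0.722 and 0.508).

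Among 12 factors of AU-rich mRNA decay and stability, ZFP36L1 rose and ZFP36L2 fell, both of which bind AU-rich elements and promote decay. ZFP36L1 was 4.69, 4.47, 4.75 and 5.54 in A549 mock and 6.08, 6.59 and 6.56 in TRIM58-WT, a rise of 1.45 (SE 0.30, limma, adjusted p = 0.0361). ZFP36L2 fell by 1.46 (SE 0.27, limma, adjusted p = 0.0268), and the median of the list was -0.01. Of 6 tested enzymes that shed or cleave chemokines, MMP7, matrilysin, fell by 5.28 (SE 0.93, limma, adjusted p = 0.0231) and CTSB, cathepsin B, by 1.06 (SE 0.16, limma, adjusted p = 0.0148). ADAM10 and ADAM17, which shed CXCL16 and CX3CL1, differed by -0.62 and -0.28 (limma, adjusted p = 0.0879 and 0.536).

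**Figure D5:**
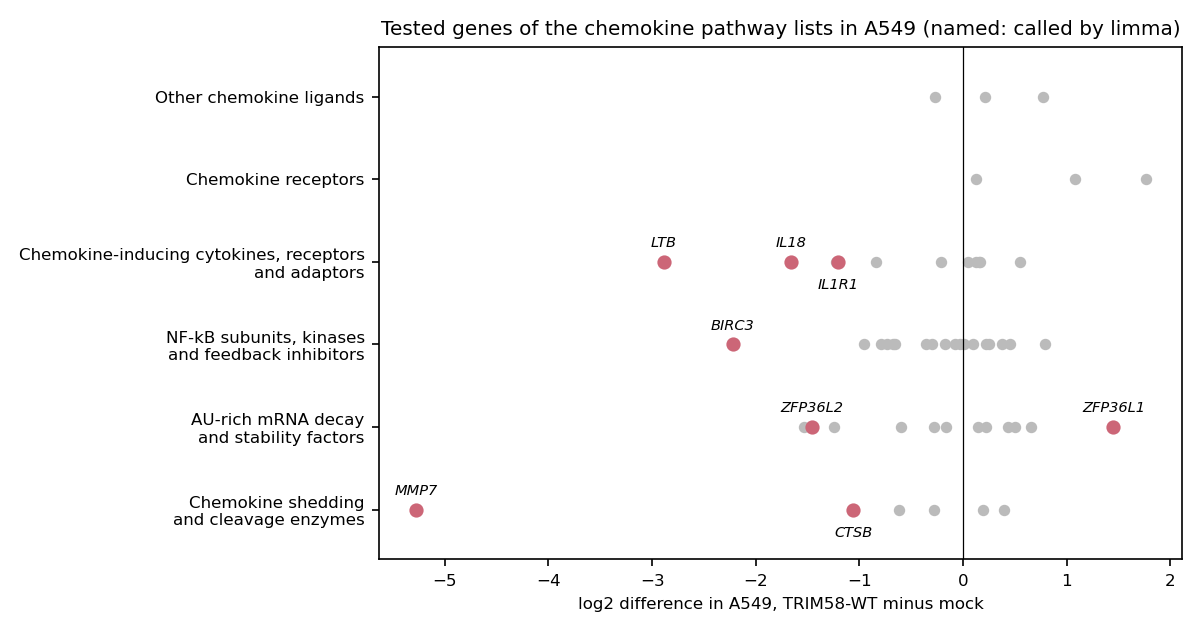
Log2 difference in A549 (TRIM58-WT minus mock, 3 against 3 replicates) of each tested gene of the 6 chemokine pathway lists, with the genes called by limma named in red and the others in grey. The 8 called genes run from -5.28 for MMP7 to 1.45 for ZFP36L1, and the ligand and receptor lists hold 3 tested genes each.

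These 8 calls depended on single replicates. Limma called 0 of the list genes without mock 1, mock 2, TRIM58-WT 2 or TRIM58-WT 3, 10 without TRIM58-WT 1 and 20 without mock 3. With TRIM58-WT 2 and 3 averaged to 1 replicate it also called 0. In HCC827, 67 list genes were tested and limma called 0, with 7 at an unadjusted p under 0.05 and 0 by the methods' t-test after adjustment. The change of IL18 differed between the lines by -1.50 (limma contrast, adjusted p = 0.0325), the only such call among 70 list genes, beside 4.61% of all genes and 3.86% of probes. That call was lost with quantile normalization, the median shift and no filter (limma, adjusted p = 0.0609, 0.0571 and 0.0921) and in 8 of 10 fits without 1 replicate, all but those without mock 3 or TRIM58-WT 1 of A549.

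Markers of the cells were read beside these values. The lung epithelial list was summed as signal over the 75th percentile, and its 10 genes came to between 1510 and 2300 in A549 mock, 1100 and 1720 in A549 TRIM58-WT, and 1470 and 1910 in HCC827. Of 6 tested in A549, 3 fell. EPCAM, a surface protein of epithelia, fell by 4.88 in A549 (SE 0.68, limma, adjusted p = 0.0117) and read 2.73, 2.71, 2.78 and 0.59 in mock, with mock 3 lowest as for the ELR chemokines. KRT19, an epithelial keratin at background in A549 TRIM58-WT, was lower by at least 723-fold (limma, adjusted p = 0.000151). KRT8 fell by 1.37 (SE 0.25, limma, adjusted p = 0.0261). EPCAM and KRT8 were not called without mock 1, mock 2, TRIM58-WT 2 or TRIM58-WT 3 (limma, adjusted p between 0.0526 and 0.123). The others differed by 0.25 (KRT7, limma, adjusted p = 0.724), -0.65 (KRT18, limma, adjusted p = 0.133) and -2.33 (CDH1, limma, adjusted p = 0.0716). NKX2-1, the lung lineage factor, was at background on every A549 array and between 3.62 and 4.85 in HCC827. The 12 leukocyte markers summed to between 7.62 and 9.38 in A549 TRIM58-WT, 9.07 and 11.2 in A549 mock, and 14.6 and 16.2 in HCC827, and 6 of them were at background on every array. In A549, 3 were tested. CD14 fell by 3.06 (SE 0.23, limma, adjusted p = 0.00154), while CD4 differed by 0.27 (limma, adjusted p = 0.461) and CD68 by -0.91 (limma, adjusted p = 0.0858). CD14 and EPCAM were each well above background on only 1 A549 TRIM58-WT array, and with normexp their differences were -1.44 and -2.44. EPCAM, KRT19 and CD14 passed the filter through A549 mock alone, so they could hardly be called higher. CD4 was well above background on every array (1.55 to 2.88), CSF1R only in HCC827 (2.31 to 2.52), and PTPRC was at most -1.64 on any array. Of the fibroblast list 6 of 7 genes and of the endothelial list 5 of 5 were at background on every array, with sums of at most 1.25 and 0.383. The part of the epithelial markers and of CD14 in the chemokine differences was not tested.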

How the data were processed

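RNA of the 11 samples was hybridised by the authors to 1-colour Agilent SuperPrint G3 Human 8x60k arrays. Per the file headers, Feature Extraction 11.5.1.1 made the deposited intensity values, which are background-subtracted and not normalized between arrays (the submitters' processing notes name version 10.7). A further log2 table, deposited by the authors with scaling and centring not given in the sources used here, served as an alternative. Outlier spots were left out, and the spots of a probe were averaged. Log2 values were shifted by each array's 75th percentile. Probes were named through RefSeq accessions (27241 of 27869 with an accession). A gene was represented by its brightest probe over the 10 replicates.

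Groups were taken from the source names in the labels. A probe was tested where at least 1 of the groups compared had it well above background throughout. Each line was fitted in limma 3.58.1 (R 4.3.3), and probes were called at a Benjamini-Hochberg adjusted p under 0.05 with at least a 2-fold change. The difference of the change between the lines was called on adjusted p alone. The scripts were tested on simulated data. The methods' t-test was run as Welch's test on the same values, and other scaling, background correction, filters and blocks were alternatives. Genes were named by rule (TRIM58, the members, up to 6 called genes of each list, up to 4 genes of each marker list and the 3 genes most like each member in level), and the others as the text says. The members and lists were chosen with earlier results of these data known. Replicate numbers did not pair samples (see the last section). CX3CL1 was not analysed here. The genes most like CCL2 in level are not reported here.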

Additional observations from a re-analysis of the deposited data

Results flagged for a closer look

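Several results differed in size or direction between the lines, here as the A549 change minus the HCC827 change on the log2 scale. CXCL16 (-2.30) and CXCL3 (-4.07) were lower on every A549 TRIM58-WT array and higher in every HCC827 TRIM58-WT sample than in mock, and this difference was not tested. In HCC827 the differences were 0.50 (SE 0.23) for CXCL16 and 0.11 (SE 0.13) for CXCL3, and 59.2% of all genes tested there did not overlap. The A549 size of CXCL3 depends on background signals in TRIM58-WT 2 and 3, and with normexp it was -2.03. By the limma contrast between the lines, the change differed for IL18 by -1.50 (adjusted p = 0.0325), for RASSF6 by -2.99 (adjusted p = 0.0196) and for AREG by -2.17 (adjusted p = 0.0142). Among the cell type markers the same limma contrast gave -4.89 for EPCAM (adjusted p = 0.0291), -1.98 for KRT8 (adjusted p = 0.0215), -9.79 for KRT19 (adjusted p = 8.29e-05) and -3.27 for CD14 (adjusted p = 0.00394). KRT19 was at background in A549 TRIM58-WT, so its difference depends on signals at background. EPCAM and CD14 were each well above background on only 1 A549 TRIM58-WT array, and RASSF6 not on every one, so their sizes do too. With normexp the A549 changes were -2.44 for EPCAM, -1.44 for CD14 and -0.72 for RASSF6. The calls of the limma contrast depended on the replicates. The call was lost in 8 of 10 fits without 1 replicate for IL18 and EPCAM, 7 for KRT8, 6 for RASSF6 and 4 for AREG, and in 0 for KRT19 and CD14. With quantile normalization, the median shift or no filter it was lost in 3 of 3 for IL18, 2 for KRT8 and 1 each for AREG and EPCAM.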

How the results depend on the processing

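The A549 difference of each of the 9 members kept its sign under all 22 alternatives, but sizes moved with normexp, for CXCL14 from 3.43 to 0.72, CCL20 from -3.27 to -1.23, CXCL3 from -3.96 to -2.03, CXCL16 from -1.80 to -0.84 and CXCL8, at background, from -0.89 to -0.03. CXCL16 also moved to -2.17 with the median shift. The 1171 A549 probes called became 507 with normexp background correction, 609 with no filter on dim probes, 673 with the filter on every array, 1802 with the slide as a block, 24 with the adjusted t-test, 333 with TRIM58-WT 2 and 3 averaged (chosen after seeing the data) and 297 to 2193 without 1 replicate. The 4 A549 members called became 8 with the median shift, 2 with normexp, 7 with the slide block, 0 with the adjusted t-test, 2 with TRIM58-WT 2 and 3 averaged and 1 to 7 without 1 replicate. The 8 A549 list genes called became 4 with normexp, 3 with no filter, 0 with the adjusted t-test, 0 with TRIM58-WT 2 and 3 averaged and 0 to 20 without 1 replicate. The 173 HCC827 probes called became 633 with the median shift, 106 with normexp, 0 with no filter, 367 with the filter on every array, 0 with the adjusted and 343 with the unadjusted t-test, and 0 to 461 without 1 replicate. The 0 HCC827 list genes called became 2 with the median shift and 1 with the unadjusted t-test. The 796 probes whose change differed between the lines became 527 with the median shift, 452 with no filter and 224 to 2216 without 1 replicate. The 1 list gene of that kind became 4 with quantile normalization, 3 with the median shift, 0 with no filter and 0 to 18 without 1 replicate. The median shift moved all A549 probes by -0.37 and took the share of called probes that were higher from 50.5% to 25.6%. Replicate numbers did not pair samples (same-number correlations 0.5, -0.42 and 0.5 in A549, and 0.08 in HCC827). With the replicate number as a block, 1119 A549 probes, 6 members and 8 list genes were called, and 0 HCC827 probes. Leaving out a replicate also changes which probes pass the filter. The cause of the other moves was not tested. CXCL8 in both lines, and CXCL14, CCL2 and CCL20 in HCC827, were limited by signals at background.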
